A study of Mus musculus with 6 samples.

Results

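The 10 genes described here take up, move, store and release cellular iron, or set how much of it is kept: Tfrc, Steap3, Slc11a2, Hfe, Fth1, Ftl1, Slc40a1, Hmox1, Aco1 and Ireb2. They were chosen by name, out of 16390 gene symbols carried by the array probes, and each was represented by its brightest probe; all 10 had 1 named probe. The choice was made with the difference between siSpt6 and siControl cells already known, so the differences of these 10 genes are given as a description with no test of the group. For 9 of the 10 genes the probe had enough values to be compared; Slc40a1 did not.

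The cells were CH12F3-2A, an established mouse B lymphoma line used to study antibody class switching, which it carries out from IgM to IgA under CIT, a mix of CD40L, IL4 and TGFb. A control siRNA (siControl, 3 samples) or an siRNA against Spt6 (siSpt6, 3 samples) was introduced by electroporation, CIT was added 24 h later, and RNA was extracted 24 h after that; the labels name Stealth siRNA (written Stelth) for siSpt6 and no siRNA type for siControl. All 6 samples received CIT, so no unstimulated level is available for comparison. Spt6, encoded by Supt6, is a histone chaperone and elongation factor of RNA polymerase II. One Cy5-labelled array per sample gave an intensity for each probe, in arbitrary units. The labels give the 2-mercaptoethanol of the medium as 50 microM for siControl and 50 mM for siSpt6, and whether the media differed or a unit was misprinted is not stated; the treatment and such a difference in medium cannot be told apart. Whether the 3 samples of a group were separate cultures is not in the labels, so the p-values reflect the spread among these arrays alone, which can be technical in origin.

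Iron enters most cells on transferrin, which binds transferrin receptor 1 at the surface and is carried into endosomes; there the iron is reduced and moved into the cytosol, where it is used, put into heme or iron-sulfur clusters, or stored in ferritin. Cells adjust uptake and storage through iron regulatory proteins, which in iron shortage bind stem-loops called iron-responsive elements, protecting the transferrin receptor mRNA from decay and blocking the translation of ferritin mRNA. Because that control of ferritin acts on translation, an mRNA level does not report it. Dividing lymphocytes are known for high transferrin receptor levels.

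Between 21526 and 22372 of the 23473 probes had a value on any 1 array. In the fit across all probes, 2595 of 15224 genes (17.0%) passed the threshold (limma, Benjamini-Hochberg adjusted p under 0.05), 1126 higher (7.40%) and 1469 lower (9.65%) in siSpt6; over the 21584 tested probes 16.3% passed, 7.43% higher and 8.90% lower. Of changed probes 45.5% were higher as deposited and 57.3% after quantile normalization. The probe of Supt6 itself read 33.1, 32.1 and 32.1 in siControl and 25.1, 21.8 and 28.1 in siSpt6, a log2 difference of -0.38 (SE 0.13) that missed the threshold (limma adjusted p = 0.0973). It passed under 1 alternative, cyclic loess normalization (log2 difference -0.42, limma adjusted p = 0.0491), and under 13 others it did not. With 1 array left out its limma adjusted p ran from 0.0728 to 0.222. The intensities of the 8 measured B cell markers summed to between 14510 and 17306 in siControl and between 18986 and 20340 in siSpt6. Cd79b was called higher, with means of 5787 in siControl and 8455 in siSpt6, so it weighed heavily in these sums. Cd22 was called lower, and Ighm was dim at 29.5 to 44.3. Of the markers of other cells, the 8 measured macrophage genes summed to 251 to 298 in siControl and 285 to 366 in siSpt6, the erythroid genes to 71.4 to 85.0 and 73.8 to 87.0, and the T cell genes to 27.7 to 34.1 and 23.4 to 30.6. Among these lists 0 genes passed the limma threshold, where 17.0% of all genes did. An unadjusted limma p under 0.05 was found for 2 of 8 macrophage, 0 of 4 erythroid and 1 of 4 T cell genes. Of all 15224 genes 4773 had such a p. No listed value was 0, and Lyz2, Hba-a1, Hbb-b1 and Lck were not analysed here. The part of such cells in the iron gene values was not tested, and in such bulk RNA fewer cells of a type and less RNA per cell cannot be told apart.

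Of the 9 iron genes with a comparison, 1 was called higher (Hfe) and 2 lower (Tfrc and Slc11a2), or 3 of 9 against 17.0% of all genes (7.40% higher and 9.65% lower), a share from which nothing is read because the genes were chosen on this contrast. In 5 of 9 the values of both groups did not overlap (Hfe, Fth1 and Ftl1 higher, Tfrc and Slc11a2 lower in siSpt6); over all genes with 6 values this held for 38.6%, 16.9% with siSpt6 higher and 21.6% with siSpt6 lower. The other 4, Steap3, Hmox1, Aco1 and Ireb2, had overlapping groups.

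**Figure D1:**
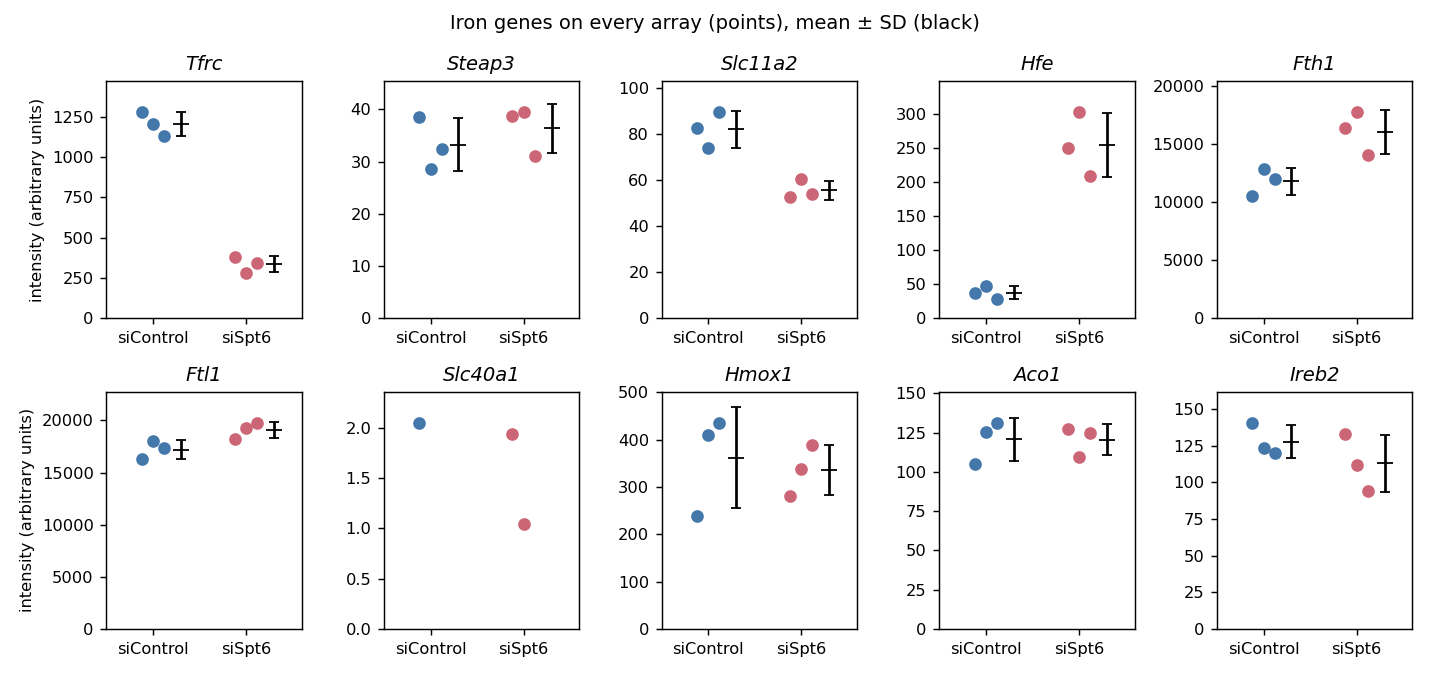
Intensity of each iron gene (arbitrary units, linear axes from 0) on the 3 siControl and the 3 siSpt6 arrays; points are arrays, and the black bar is the mean ± SD where all 3 arrays had a value. Tfrc and Slc11a2 are lower and Hfe, Fth1 and Ftl1 higher on every siSpt6 array, and the other genes overlap or, for Slc40a1, were hardly measured.

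Among the genes of uptake, Tfrc, which encodes transferrin receptor 1, had the largest fall. Its intensities were 1279, 1203 and 1129 in siControl cells, and in siSpt6 cells 381, 279 and 344. The highest siSpt6 value lay below the lowest siControl value by a wide margin. The means were 1203 ± 75.0 and 335 ± 51.1 (intensity ± SD, n = 3 each), a level 3.62-fold lower in siSpt6 (log2 difference -1.86, SE 0.15). This was the 27th largest fall among 15224 genes. Genes as bright as Tfrc, within 0.5 on the log2 scale, had a median log2 difference of -0.15.

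Slc11a2 encodes the divalent metal transporter that moves ferrous iron out of the endosome. Its intensities were 82.7, 73.9 and 89.6 in siControl and 52.8, 60.4 and 53.8 in siSpt6, all lower than any siControl value. The level fell 1.47-fold (log2 difference -0.56, SE 0.13). The call was lost with the replicate number as a block and without each array in turn except siControl replicate 2; in the 5 fits without 1 array that lost it, the log2 difference lay between -0.62 and -0.49. Steap3, the endosomal reductase that prepares iron for this transporter, read 38.6, 28.5 and 32.5 in siControl and 38.7, 39.5 and 31.0 in siSpt6. Its groups overlapped, with a log2 difference of 0.14 (SE 0.16).

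Hfe, the highest of the group relative to control, encodes a class I-like protein that pairs with beta-2 microglobulin and binds transferrin receptor 1 at the site used by transferrin; in liver it takes part with transferrin receptor 2 in the control of hepcidin. Its probe read 37.1, 47.9 and 28.4 in siControl and 250.2, 304 and 209 in siSpt6. No array of either group came near the other group. The means were 37.8 ± 9.78 and 254 ± 47.2 (intensity ± SD, n = 3 each), a 6.81-fold higher level (log2 difference 2.77, SE 0.23), and the 18th largest rise among 15224 genes. With a pseudocount of 2.66 the log2 difference was 2.68, close to the value without one.

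Hfe and Tfrc were the iron genes that moved most, in opposite directions, and the 250 bases before their outermost annotated starts are shown for that contrast (RefSeq, GRCm38.p6; Hfe at chr13:23710855-23711104 on the minus strand, Tfrc at chr16:32608646-32608895 on the plus strand, both written 5′ to 3′ on the gene's strand). Capitals mark matches, on either strand, to any of 6 searched motifs: the E-box CACGTG, the GC box GGGCGG, the CCAAT box, the TATA box as TATAAA, the AP-1 motif TGACTCA and the core antioxidant response element TGACNNNGC. The last pair can overlap.
Hfe: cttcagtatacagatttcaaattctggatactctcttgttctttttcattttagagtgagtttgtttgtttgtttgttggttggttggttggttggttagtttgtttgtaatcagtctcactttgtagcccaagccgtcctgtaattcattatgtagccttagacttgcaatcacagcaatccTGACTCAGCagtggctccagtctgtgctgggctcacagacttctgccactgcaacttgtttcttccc
Tfrc: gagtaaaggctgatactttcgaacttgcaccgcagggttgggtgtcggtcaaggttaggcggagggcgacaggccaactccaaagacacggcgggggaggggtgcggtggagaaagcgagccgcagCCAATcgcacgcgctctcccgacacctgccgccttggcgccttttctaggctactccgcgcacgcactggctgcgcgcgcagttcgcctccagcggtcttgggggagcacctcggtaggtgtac
The Hfe window had 42.0% G and C and 1 CpG, and the Tfrc window 64.8% and 25 CpG, where the median of 27025 gene windows of this length was 52.0% and 6 CpG. The capitals in Hfe hold TGACTCA and, overlapping it, TGACNNNGC, both from 67 bases before the start; of all windows 4.43% held the former and 10.1% the latter. The Tfrc window held CCAAT, from 124 bases before the start, as did 34.5% of all windows. Neither held CACGTG, found in 6.04% of windows, GGGCGG (33.0%) or TATAAA (13.0%). Of the 10 iron genes 7 had a window in the table; among the other 5 (Fth1, Ftl1, Aco1, Ireb2 and Steap3) none held TGACTCA or TGACNNNGC. A match is a run of letters and not a measured site.

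Both storage genes had bright probes. Fth1, the heavy chain of ferritin with its iron-oxidising centre, read 10501, 12790 and 12007 in siControl and 16335, 17730 and 14012 in siSpt6. All siSpt6 values were the higher ones, with means of 11766 ± 1164 and 16026 ± 1878 (intensity ± SD, n = 3 each) and a log2 difference of 0.44 (SE 0.14), which was not called. Ftl1, the light chain, which aids core formation, read 16259, 18004 and 17344 in siControl and 18261, 19250 and 19787 in siSpt6. Its groups were apart by a narrow gap and its log2 difference was 0.15 (SE 0.11), also not called.

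The ferritin values depended on how bright probes were scaled. As deposited, the 38 genes within 0.5 log2 of Fth1 had a median log2 difference of -0.28, and the 36 genes near Ftl1 one of -0.41. Quantile normalization gave log2 differences of 0.83 for Fth1 and 0.53 for Ftl1, and cyclic loess 0.83 and 0.56, and both genes were then called higher. Hfe stood at 2.81 and 2.79 and Tfrc at -1.67 and -1.69 under the same settings. With both ferritin genes, 5 of 9 iron genes were called after either normalization, where 15.8% (quantile) and 16.5% (cyclic loess) of all genes were; nothing is read from that share either.

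**Figure D2:**
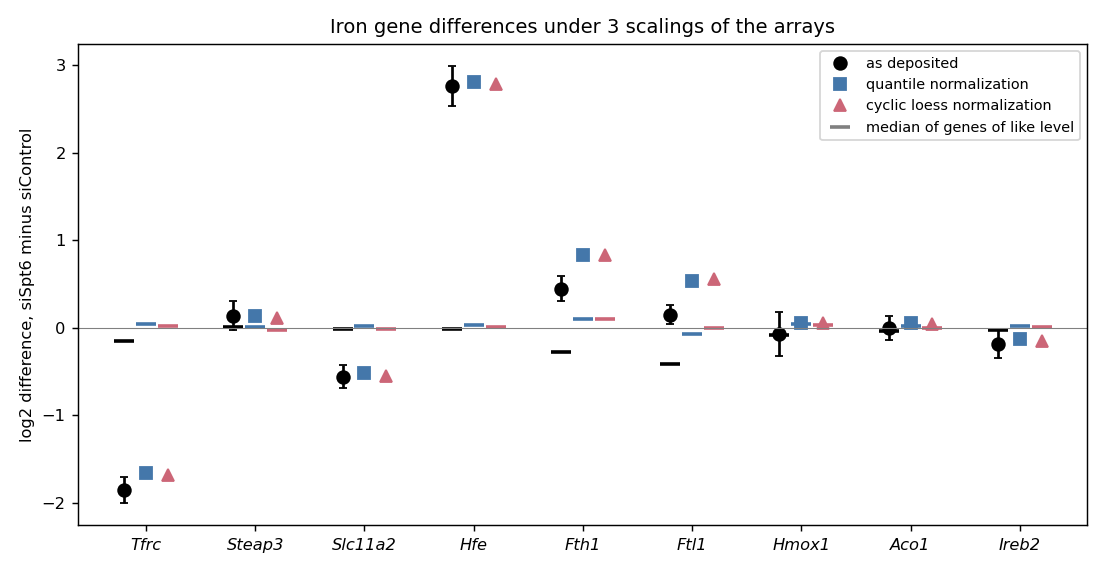
Log2 difference, siSpt6 minus siControl, of the 9 compared iron genes (x axis) as deposited (circles, bars are the SE), after quantile normalization (squares) and after cyclic loess (triangles); short dashes are the median of genes within 0.5 log2 of the gene's level. Hfe and Tfrc keep their place, while Fth1 and Ftl1 move from 0.44 and 0.15 to 0.83 and 0.53 after quantile normalization.

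Release of iron was carried by genes that were dim or uneven. Slc40a1, ferroportin, the exporter of iron, had a value of 2.05 on siControl replicate 1 and of 1.94 and 1.05 on siSpt6 replicates 1 and 3, and was blank on the other 3 arrays, so no difference is given. Hmox1, which opens the heme ring and frees its iron, read 239, 410 and 436 in siControl and 281, 338 and 387 in siSpt6. Its siControl values spread over a coefficient of variation of 29.6%, the widest of the 9 genes, and contained the whole siSpt6 range. The log2 difference of -0.07 (SE 0.25) turned to 0.059 and 0.051 after quantile and cyclic loess normalization.

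The iron sensors lay close to control. Aco1, iron regulatory protein 1, which doubles as the cytosolic aconitase when it holds an iron-sulfur cluster, read 105, 126 and 131 in siControl and 127, 109 and 125 in siSpt6 (log2 difference 0.00, SE 0.14). Ireb2, iron regulatory protein 2, which is degraded when iron is ample, read 141, 123 and 120 in siControl and 133, 112 and 93.8 in siSpt6 (log2 difference -0.19, SE 0.16). Both genes had overlapping groups.

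On chromosome 13, where Hfe lies, the 5 nearest genes with a compared probe on either side, in RefSeq gene order, were all histone genes. Counted in genes from Hfe, they lay at places 6 (H1f4) to 21 (H2ac10) on 1 side. On the other side they lay at places 2 (H1f2) to 11 (H1f1), and genes between them had no compared probe. Replication-dependent histone mRNAs normally end in a stem-loop instead of a poly(A) tail. Of the 10 neighbours 3 were higher (H1f2, H4c1 and H2bc9) and 2 lower (H2ac4 and H2ac10), with a median log2 difference of 0.09, against 17.0% of genes called and a median of -0.00 over all tested genes. H1f2, a linker histone gene and the nearest compared gene on its side, is the second gene from Hfe in that order, with a pseudogene between them. It read 139, 125 and 126 in siControl and 579, 676 and 717 in siSpt6. The rise was 5.05-fold (log2 difference 2.34, SE 0.13, limma adjusted p = 0.000437), the 32nd largest of all genes, and every siSpt6 value was above every siControl value.

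Farther along the same side, H4c1, a histone H4 gene, rose 2.11-fold (limma adjusted p = 0.00235); of its 7 probes 6 were called higher, and all 7 had a difference above 0, from 0.22 to 1.11. H2bc9, an H2B gene on the other side, rose 1.62-fold (limma adjusted p = 0.00874). The bright H2A genes H2ac10 and H2ac4 fell by 0.79 and 0.81 on the log2 scale (limma adjusted p = 0.00537 and 0.0236). The log2 difference of H2ac10 shrank to -0.42 after quantile and -0.42 after cyclic loess normalization, still called (limma adjusted p = 0.0431 and 0.0401). The call of H2ac4 was lost after quantile and cyclic loess normalization (limma adjusted p = 0.107 and 0.136), and without siControl replicate 1 or any 1 siSpt6 array (limma adjusted p from 0.0555 to 0.0690). H1f4, the nearest compared gene on the side away from H1f2, had a log2 difference of 0.18 (limma adjusted p = 0.373). Its other, dimmer probe had one of -0.13 (limma adjusted p = 0.677). H1f3, H3c8, H3c2 and H1f1 did not pass either, with log2 differences of -0.10, 0.00, 0.25 and -0.33. Histone genes of a class are near-identical in sequence, so a probe may read several of them. Over the 17 compared histone genes of this chromosome 6 rose and 3 fell, where 7.40% of all genes rose and 9.65% fell, with log2 differences between -0.90 (H2ac15) and 2.34 (H1f2).

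**Figure D3:**
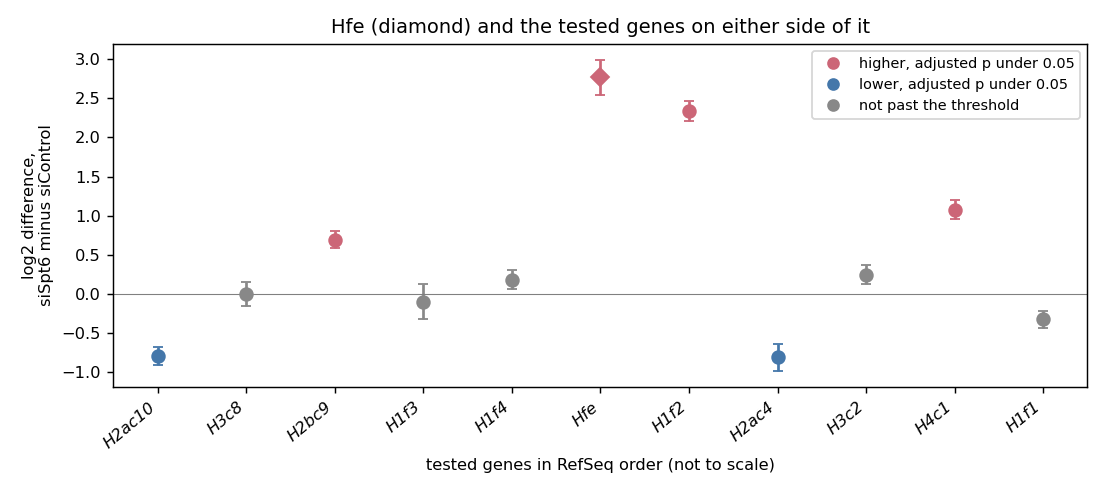
Log2 difference, siSpt6 minus siControl, with its SE, for Hfe (diamond) and the 5 nearest compared genes on either side, in RefSeq order and not to scale; colours give the call. Hfe (2.77) and H1f2 (2.34) stand above the rest, and the other neighbours lie between -0.81 (H2ac4) and 1.08 (H4c1).

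The genes that work with these 10 were taken from 8 lists of iron and heme genes chosen for function. Of 118 such genes 98 were compared, and 9 rose and 9 fell, 18.4% against 17.0% of all genes, with a median log2 difference of -0.01 against -0.00. The lists as a whole thus stood near the background.

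In the transferrin cycle and iron entry list 2 of 16 compared genes rose and 0 fell at the limma threshold, against 7.40% and 9.65% of all genes. The median log2 difference of the list was 0.20. Of the 16 genes 5 had an unadjusted limma p under 0.05, as did 4773 of all 15224 genes. After quantile and cyclic loess normalization 3 and 3 were called, where 15.8% and 16.5% of all genes were. Tfr2, transferrin receptor 2, read 7.46, 8.16 and 8.14 in siControl and 31.2, 31.9 and 42.4 in siSpt6. The groups were far apart on the array scale, but the control values were dim and their background is not known. It rose (log2 difference 2.14, SE 0.15, limma adjusted p = 0.000665), and the log2 difference was 1.83 with the pseudocount of 2.66. Picalm, a clathrin adaptor that takes part in transferrin receptor uptake, rose 1.66-fold from 781 ± 85.1 to 1290 ± 56.8 (limma adjusted p = 0.0109).

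B2m, the partner chain of Hfe, read 10076, 8841 and 9786 in siControl and 10274, 10722 and 10501 in siSpt6. Its siSpt6 values were the higher ones, with a log2 difference of 0.14 (SE 0.11, limma adjusted p = 0.476) as deposited. At this brightness the scaling decided the call: after quantile and cyclic loess normalization the log2 difference was 0.50 and 0.50 (limma adjusted p = 0.0298 and 0.0299). Of the 9 compared genes of the list of Hfe's partner and class I genes 0 were called by limma as deposited, 1 had an unadjusted p under 0.05, and 1 was called after either normalization. Of all genes 17.0% were called as deposited, and 15.8% and 16.5% after quantile and cyclic loess normalization. An unadjusted limma p under 0.05 was found for 4773 of all 15224 genes.

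Hepcidin is the hormone that closes ferroportin, and its regulators were mostly dim in these cells. Of 11 compared genes 1 rose and 1 fell, against 7.40% and 9.65% of all genes (median log2 difference 0.15). After quantile and cyclic loess normalization 2 and 2 were called, where 15.8% and 16.5% of all genes were. Hamp2, a hepcidin gene of the mouse, fell 4.80-fold, from 16.4, 13.7 and 17.2 in siControl to 3.35, 2.87 and 3.66 in siSpt6 (limma adjusted p = 0.000596). Tmprss6, the protease that restrains hepcidin, read 1.78 and 1.23 on 2 siControl arrays, was blank on the third, and rose to 3.93, 4.17 and 3.44 in siSpt6 (limma adjusted p = 0.00893). Both changes sit at the dim end, and with the pseudocount the log2 differences shrank to -1.63 and 0.65 from -2.26 and 1.37. Hamp itself had too few values to be compared.

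Heme synthesis had 11 compared genes, of which 1 rose and 2 fell, against 7.40% and 9.65% of all genes (median log2 difference -0.01). After quantile and cyclic loess normalization 3 and 3 were called, where 15.8% and 16.5% of all genes were. Cpox, coproporphyrinogen oxidase, fell 2.59-fold, from 442, 353 and 271 in siControl to 158, 132 and 117 in siSpt6 (limma adjusted p = 0.00719). Alad, which joins aminolevulinate into the pyrrole ring, fell 1.84-fold from 300.1 ± 20.4 to 164 ± 17.5 (limma adjusted p = 0.00650). Uros rose 1.55-fold (limma adjusted p = 0.0177), a call lost without siControl replicate 3, siSpt6 replicate 1 or siSpt6 replicate 3 (limma adjusted p from 0.0515 to 0.0568). Alas1, the rate-limiting enzyme outside red cells, read 563, 602 and 263 in siControl and 684, 586 and 613 in siSpt6. The groups overlapped, with siControl replicate 3 lying apart (log2 difference 0.49, limma adjusted p = 0.355), and it was named after its value was seen.

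In the list of heme breakdown, heme transport and the NRF2 and BACH1 regulators of Hmox1, 4 of 17 compared genes rose and 1 fell. Of all genes 7.40% rose and 9.65% fell, and the median log2 difference of the list was -0.12. The 4 were the transcription factors Nfe2l2, which encodes NRF2 (1.51-fold, limma adjusted p = 0.0200), and Bach1, a heme-sensing repressor of Hmox1 (1.55-fold, limma adjusted p = 0.0387), the glutathione synthesis gene Gclc (1.62-fold, limma adjusted p = 0.0169) and the heme and folate transporter Slc46a1 (1.70-fold, limma adjusted p = 0.0293). Blvrb, a biliverdin reductase, fell 1.35-fold (limma adjusted p = 0.0454). Other NRF2 target genes did not pass, with log2 differences of 0.17 (Nqo1), -0.22 (Gclm), -0.16 (Txnrd1) and -0.24 (Srxn1). These 4 were named after their values were seen. The call of Nfe2l2 and that of Slc46a1 were lost without each array in turn except siSpt6 replicate 1 (limma adjusted p up to 0.0664 and 0.0899), that of Bach1 without each except siSpt6 replicate 2 and with the replicate block (up to 0.107 and 0.0632). Gclc lost it without siSpt6 replicate 1 or 3 (limma adjusted p up to 0.0555), and Blvrb without any 1 of the 6 arrays, with the replicate block and after either normalization (limma adjusted p up to 0.130). After quantile and cyclic loess normalization 4 and 4 genes of the list were called, where 15.8% and 16.5% of all genes were.

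Iron-sulfur cluster assembly held 21 compared genes, of which 1 rose and 4 fell, against 7.40% and 9.65% of all genes (median log2 difference -0.13). After quantile and cyclic loess normalization 7 and 6 were called, where 15.8% and 16.5% of all genes were. Iscu, the scaffold on which clusters are built, read 669, 937 and 855 in siControl and 1802, 2114 and 1910 in siSpt6. The rise was 2.39-fold (log2 difference 1.25, SE 0.16, limma adjusted p = 0.00393) and held without any 1 array. Its chaperone partner Hspa9 fell 1.83-fold from 2061 ± 127 to 1132 ± 143 (limma adjusted p = 0.00761). Of the cytosolic assembly genes, Nubp1 fell 1.76-fold (limma adjusted p = 0.00795) and Ciapin1 1.54-fold (limma adjusted p = 0.0120). Fdx2, a mitochondrial ferredoxin, fell 1.51-fold (limma adjusted p = 0.0222), a call lost without siControl replicates 1 or 3 or siSpt6 replicates 1 or 2 (limma adjusted p up to 0.0680). Nfs1, the desulfurase that supplies the sulfur, had a log2 difference of 0.38 (limma adjusted p = 0.0559) and was named after its value was seen.

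Storage, delivery and efflux beyond ferritin held 7 compared genes, of which 1 fell and 0 rose by limma, against 9.65% and 7.40% of all genes. Of the 7, 1 had an unadjusted limma p under 0.05, as did 4773 of all 15224 genes. After quantile and cyclic loess normalization 0 and 1 were called, where 15.8% and 16.5% of all genes were. The gene that fell was Slc25a28, a carrier of iron into mitochondria, by 1.45-fold (limma adjusted p = 0.0402). Leaving out any single array ended the call (limma adjusted p from 0.0570 to 0.109), as did quantile normalization (limma adjusted p = 0.0555). Ncoa4, the receptor that hands ferritin to lysosomes, had a log2 difference of 0.23 (limma adjusted p = 0.362). Of the 6 compared genes that control the iron regulatory proteins or carry iron-responsive elements, 0 were called by limma, while 1 had an unadjusted p under 0.05 and 0 were called after either normalization. As deposited, 17.0% of all genes were called. Fbxl5, the iron-sensing ligase subunit that marks iron regulatory protein 2 for degradation, had a log2 difference of 0.30 (limma adjusted p = 0.237). Ncoa4 and Fbxl5 were named after their values were seen.

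**Figure D4:**
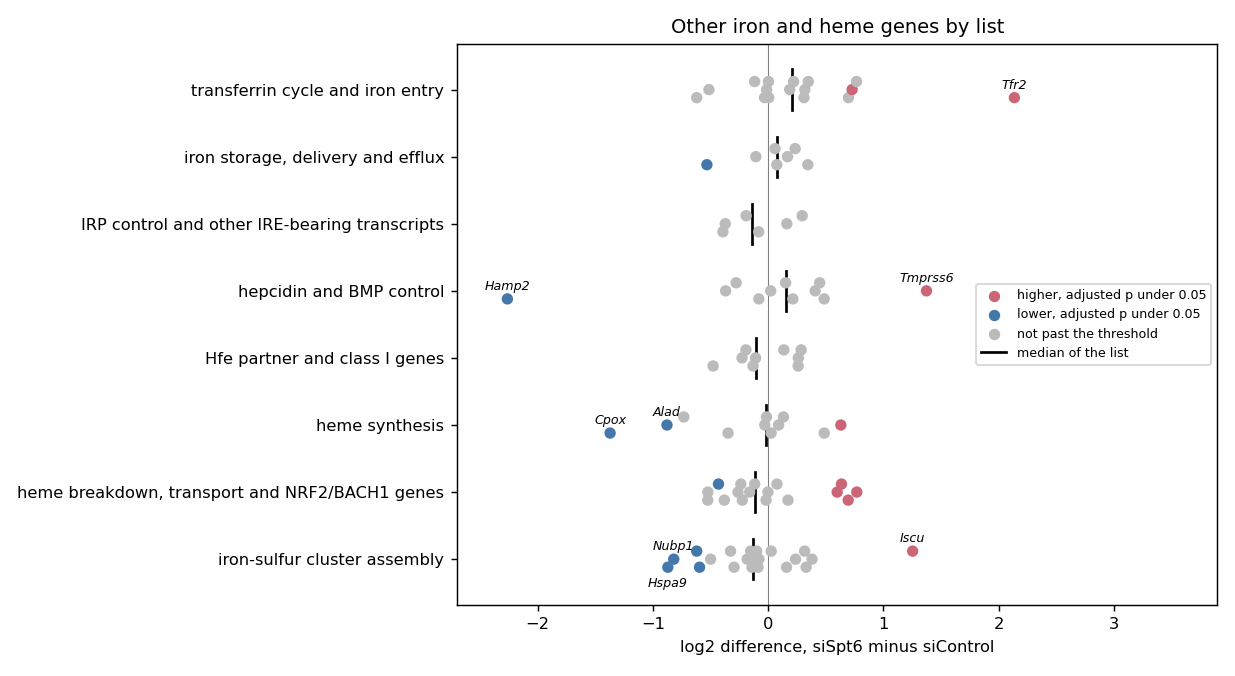
Log2 difference, siSpt6 minus siControl, of the compared genes of the 8 functional lists (rows); each point is a gene, coloured by its call, and the black line is the list's median. Medians lie between -0.14 and 0.20, with Tfr2 (2.14), Tmprss6 (1.37) and Iscu (1.25) farthest above 0 and Hamp2 (-2.26) and Cpox (-1.37) farthest below.

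The profiles over the 6 arrays most like that of Hfe, among 7938 bright named genes, were those of Nr4a2 (r = 0.998), Plpbp (r = 0.996) and Sord (r = 0.996). Their log2 differences were smaller, at 0.60, 0.72 and 0.45. For Tfrc they were Fastkd3, Ppa1 and Rhebl1, with r from 0.99942 to 0.99955 and log2 differences from -1.14 to -0.68. These are Pearson correlations of log2 intensities over 6 arrays that share the split into 2 groups, given as a description.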

How the data were processed

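RNA from 6 samples (3 siControl, 3 siSpt6) was, per the labels' protocols, purified with an RNeasy kit, amplified with MessageAmp II, coupled to Cy5 and prepared for arrays after TORAY's protocol. The authors deposited intensity values on a linear scale; how these were background-corrected or scaled is not stated in the labels. The array medians lay between 29.97 and 30.00, so the deposited intensities were kept and log2-transformed with no pseudocount; 4.69% to 8.29% of probes were blank on an array and were taken as missing. Depth has no counterpart here: the number of arrays, 3 per group, limits precision, and no detection limit is stated for dim values.

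Of 23473 probes 16631 had 1 gene symbol and 6842 none, in a table of the platform's annotation; symbols were updated to RefSeq names (GRCm38.p6), which served for names, gene order and promoter windows, since the array's build is not stated. A probe needed values on at least 2 arrays of each group, which left 21584. The group difference was fitted with limma 3.58.1 (lmFit and eBayes) in R 4.3.3, two-sided, with Benjamini-Hochberg adjustment across the tested probes. Folds were taken from the log2 difference, and means ± SD are of linear intensities. The brightest probe stood for a gene.

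The 10 iron genes and all lists were chosen with earlier results of these data known. Genes were named as follows: the 10 genes, Supt6, B2m, the neighbours of Hfe, for each list the 2 rises and 2 falls of lowest adjusted p, or all calls of a list with 5 or fewer, and the 3 profiles most like Hfe and Tfrc; others are marked in the text. Alternatives covered normalization, filters, a pseudocount (the 10th percentile of all values), variance models, array weights, the replicate block, the mean of a gene's probes, thresholds and each array left out. The fit was also run on simulated arrays with known changes and independent noise, a check of the code and not of the calls made here. Columns were matched to samples by the sample identifier in the header.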

Additional observations from a re-analysis of the deposited data

How the results depend on the processing

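Hfe and Tfrc kept their direction and their call under all 16 alternatives run for each. Steap3 and Ireb2 were called under none of theirs, and with 1 array left out their differences ran from 0.032 to 0.25 and from -0.32 to -0.065. The count of changed probes, 3525 as reported, was 1354 at an adjusted p under 0.01, 971 with at least a 2-fold change, and 2099 to 2522 with 1 array left out. Its highest values were 4568 (trend and robust eBayes), 4126 (pseudocount) and 3974 (bright probes only). The iron genes called, 3 as reported, numbered 5 after quantile and 5 after cyclic loess normalization (15.8% and 16.5% of all genes), and 2 to 3 with 1 array left out. The wider iron genes, 18 as reported, numbered 8 at an adjusted p under 0.01. With 1 array left out they numbered 11 to 14, the lowest without siControl replicate 1. Their highest count was 25, with trend and robust eBayes. Fth1 passed the threshold at 0.44 among bright probes only and with trend and robust eBayes, and at 0.83 after either normalization; Ftl1 passed at 0.53 (quantile) and 0.56 (cyclic loess), and Supt6 at -0.42 (cyclic loess). Hmox1 turned to 0.059 (quantile) and 0.051 (cyclic loess) and ran from -0.35 to 0.088 with 1 array left out, Aco1 from -0.10 to 0.070, H3c8 from -0.14 to 0.12 (-0.016 after cyclic loess), H1f3 from -0.27 to 0.10, and Slc11a2 from -0.63 to -0.49. The cause of these shifts was not tested. Same-numbered samples deviated together with r of 0.35, 0.08 and 0.26 for replicates 1, 2 and 3; each siControl sample correlated best with its own number, a hint from the data, not the design. The replicate block moved the count of changed probes to 3594 and left Slc11a2 at -0.56, no longer called. Signal over background is not part of the values, so the sizes of dim changes (Hamp2, Tmprss6, Tfr2) are the least certain.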
